A study of Mus musculus with 6 samples.

Results

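The genes described here serve adipocyte differentiation and lipid storage. They are 35 genes chosen by symbol, and 33 of them were analysed, as those probe sets to which the annotation of the array gives exactly 1 of the symbols; Acsl1, an enzyme that activates fatty acids, and Cfd, the secreted protease adipsin, were not analysed here. The 33 genes were set among 19938 named genes, each represented by its brightest probe set. The list was chosen with earlier results of these data known, so shares above those of named genes are not independent support. The genes were measured in MS5, an established mouse line of bone marrow stroma used to support leukaemic and haematopoietic cells in culture. The MEKi cultures received 1 µM PD184352, an inhibitor of the kinase MEK, for 7 days, and the diluent cultures received dimethyl sulphoxide (DMSO) alone. Each of 3 independent experiments, numbered 1 to 3 in the labels, gave 1 MEKi array and 1 diluent array, 6 Affymetrix mouse Gene 1.0 ST arrays in all. All cultures were grown without leukaemic cells, in the same serum-containing medium, and no adipogenic cocktail is mentioned in the labels or methods. A single cell line stands here for marrow stroma, and the experiments are repeat cultures of it, not animals.

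Marrow stromal cells can become adipocytes. The transcription factors C/EBPβ and C/EBPδ act early and induce C/EBPα and PPARγ, which together switch on the genes for fatty acid uptake, triglyceride assembly and the coat of the lipid droplet, while Dlk1 keeps preadipocytes undifferentiated. MEK phosphorylates ERK1 and ERK2, and ERK signalling has been described both to start and to restrain this programme, depending on its timing.

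Values are log2 intensities, so that a difference of 1 is a doubling, and a log2 fold change is the mean over the experiments of the MEKi minus diluent differences. The array medians lay between 6.29 and 6.38. Of the 33 genes, 29 had a mean at or above 6.32, the median brightness of all probe sets. For the 33 genes the median level was 9.17 to 10.74 with MEKi and 9.28 to 10.75 with diluent. For all named genes it was 6.61 to 6.73 and 6.61 to 6.66. The shares of named genes given below were not restricted to genes of like brightness. Bone marrow stromal markers were bright: the median level of 13 measured of 14 was 10.85 to 11.21 in MEKi cultures and 10.63 to 11.08 in diluent cultures, although Thy1, Nt5e and Lepr, which also mark such cells, were dim on every array. Of 14 genes that ERK signalling is known to induce, all 14 had a negative log2 fold change, 11 were lower in all 3 experiments, and the cyclin Ccnd1 and the AP-1 subunit Fosl1 passed the test. In a bulk culture, fewer cells of a type and less RNA per cell cannot be told apart.

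Across the 33 genes, most values were higher with MEKi in experiments 1 and 3 and about equal in experiment 2. The median difference of the 33 genes was 0.18 in experiment 1, 0.01 in experiment 2 and 0.55 in experiment 3. Over all named genes it was −0.002, 0.105 and 0.018. Thus the genes of fat storage stood farthest above the other genes in experiment 3 and slightly below them in experiment 2. With the sign kept, the highest of the 3 differences belonged to experiment 3 for 28 of the 33 genes. The lowest belonged to experiment 2 for 22 of them. The shares of named genes with these orders were not counted. The median log2 fold change over the 3 experiments was 0.27 for the 33 genes and 0.04 for all named genes, and it was 0.08 for the 33 genes without experiment 3.

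No gene of the 33 passed the test across all probe sets (limma, Benjamini-Hochberg, adjusted p under 0.05), in either direction. The smallest adjusted p among them was 0.262, for Aqp7. In the same comparison 0.0802% of named genes were called higher and 0.0552% lower. At an unadjusted p under 0.05 in the same limma fit, 15 of the 33 genes (45.5%) were higher, against 7.85% of named genes. Another 2, Cebpb and Plin2, were lower (6.06%), against 2.31% of named genes. Without experiment 1 the count of higher genes was 9 (6.26% of named genes), without experiment 2 it was 19 (5.92%) and without experiment 3 it was 4 (4.47%). The count of lower genes was 0 without experiment 1 (1.34% of named genes), 2 without experiment 2 (6.06%, against 5.08%) and 2 without experiment 3 (6.06%, against 1.75%). When the experiments were not used as a replicate block, 2 genes were higher at that level and 0 lower, against 2.47% and 0.808% of named genes.

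A MEKi value above the diluent value in all 3 experiments was found for 14 of the 33 genes (42.4%), against 25.2% of named genes. The 14 were Ebf1, Zfp423, Plin4, Angptl4, Fasn, Acaca, Dgat1, Agpat2, Pck1, Slc2a4, Aqp7, Lipe, Pnpla2 and Adipoq. Many of their differences in experiment 2 were close to 0, and the count depended on the scale of the arrays: it was 6 with arrays centred on their medians (18.2% of named genes) and 8 after a further quantile normalization (16.8% of named genes). Plin4, Angptl4, Fasn, Pck1 and Aqp7 were higher in all 3 experiments under each of the 3 scalings. A MEKi value below the diluent value in all 3 experiments was found for 2 genes as deposited (6.06%), Plin2 and Cebpd, against 7.42% of named genes. Centring gave 3 such genes (14.0% of named genes) and quantile normalization 4 (15.3%), with Plin2 and Cebpd among them each time. A separation of all 3 MEKi values above all 3 diluent values was seen for 1 gene of the 33, Zfp423, and for 0 genes in the other direction. The share of named genes with such a separation was not counted, so these counts have nothing to be set against.

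**Figure D1:**
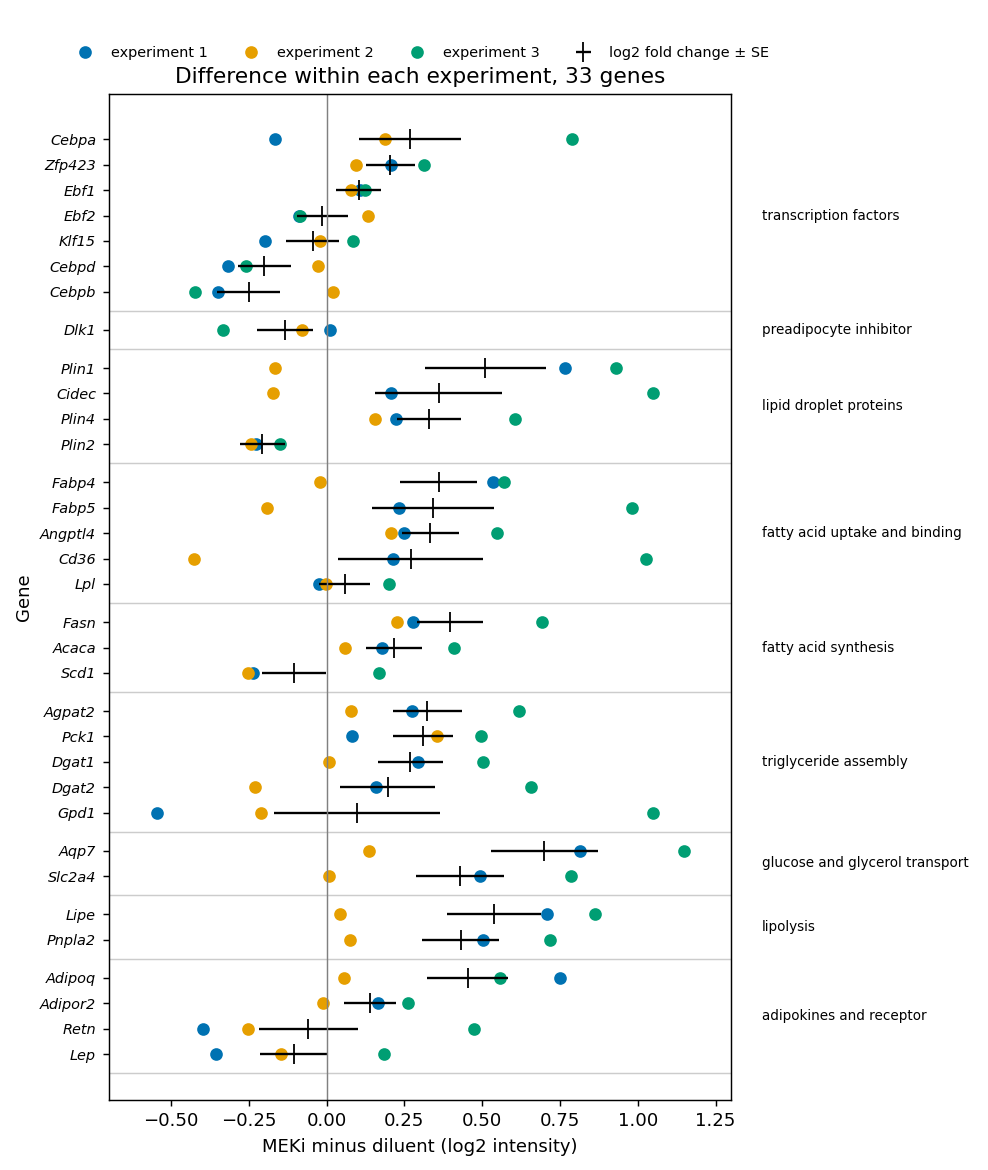
MEKi minus diluent difference (log2 intensity, horizontal axis) of the 33 genes, grouped by role, with a point for each of the 3 experiments and the log2 fold change with its standard error. The points of experiment 3 lie farthest to the right for 28 of the 33 genes, and those of experiment 2 lie around 0, with a median of 0.01.

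A change of at least 1.5-fold within an experiment rests on 1 array against 1 array and was not tested. In experiment 1 it was reached upward by 4 genes (12.1%), which were Plin1, Aqp7, Lipe and Adipoq, against 0.346% of named genes, and downward by 0, against 0.953%. In experiment 2 it was reached by 0 genes upward, against 0.642% of named genes, and by 0 downward, against 0.361%. In experiment 3 it was reached upward by 14 genes (42.4%), against 1.09% of named genes, and downward by 0, against 0.582%. The experiments were thus unlike each other for these genes, and with 1 array per condition in each, a difference between their responses could not be tested.

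Among the transcription factors, Cebpa, which maintains the adipocyte programme, measured 9.17, 10.19 and 10.31 in the MEKi cultures of experiments 1, 2 and 3, against 9.34, 10.00 and 9.53 in the diluent cultures. Only in experiment 3 did its 2 values lie far apart, by 0.79, and the groups overlapped (log2 fold change 0.27 ± 0.16 SE, limma adjusted p = 0.652). Cebpb, the early inducer, measured 7.82, 7.86 and 8.26 with MEKi, against 8.17, 7.84 and 8.69 with diluent. It was lower in experiments 1 and 3 and equal in experiment 2 (−0.25 ± 0.10, adjusted p = 0.485), with its sister factor Cebpd at −0.20 ± 0.09. Zfp423, which commits precursors to the fat lineage, measured 8.26, 8.22 and 8.18 with MEKi, against 8.05, 8.13 and 7.87 with diluent; its groups did not overlap, but the difference was small (0.20 ± 0.08, adjusted p = 0.462). The log2 fold changes of the other factors were 0.10 for Ebf1, −0.01 for Ebf2 and −0.05 for Klf15. Dlk1, the inhibitor of differentiation, measured 6.25, 6.24 and 6.12 with MEKi, against 6.24, 6.32 and 6.46 with diluent, close to the median brightness and with overlapping groups (−0.14 ± 0.09, adjusted p = 0.678).

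Pparg, the receptor at the head of the programme, is not among the 35 genes and was looked up after the other values were seen. It measured 10.93, 11.54 and 11.87 with MEKi, against 10.90, 11.64 and 11.68 with diluent, and the groups overlapped (0.04 ± 0.08, adjusted p = 0.916). Its level differed between the experiments (F test in the same fit, adjusted p = 0.00863), with experiment 1 the lowest under both conditions.

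The lipid droplet proteins did not share a direction. Plin1, which coats the droplet of fat cells and gates lipolysis, measured 10.19, 11.21 and 11.77 with MEKi, against 9.43, 11.37 and 10.84 with diluent. The MEKi culture was higher in experiments 1 and 3 and lower in experiment 2, where the diluent value was the highest of the 3 (0.51 ± 0.19, fold 1.42, 95% interval 1.04 to 1.95, adjusted p = 0.457). Cidec, which fuses droplets into larger ones, measured 8.06, 10.74 and 10.47 with MEKi, against 7.86, 10.92 and 9.42 with diluent. Its diluent cultures spanned 3.06, and its difference of 1.05 in experiment 3 lay within that span (0.36 ± 0.20, adjusted p = 0.623). Plin4, a coat protein of small droplets, was higher in all 3 experiments (0.33 ± 0.10, adjusted p = 0.374), whereas Plin2, the coat protein found in most cell types, was lower in all 3 (−0.21 ± 0.07, adjusted p = 0.418).

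The promoters of Plin1 and Cidec, both of which were higher with MEKi in experiments 1 and 3 and lower in experiment 2, are shown because each gene has a promoter with a match to a C/EBP site. RefSeq gave Cidec 2 starts, and the promoter of the other one held no match to either motif in its 250 bases before the start. The promoters of Aqp7 were also looked at, held no match to either motif and are not shown. Those of Lep and Zfp423, which held a C/EBP match, are not shown either. The sequences are the 250 bases before the annotated start, from RefSeq on GRCm38.p6, printed 5′ to 3′ along the gene; capitals mark TTGCNNAA and, in Cidec, TGANTCA, the AP-1 site.
Plin1 (chr7:79732777-79733026, minus strand): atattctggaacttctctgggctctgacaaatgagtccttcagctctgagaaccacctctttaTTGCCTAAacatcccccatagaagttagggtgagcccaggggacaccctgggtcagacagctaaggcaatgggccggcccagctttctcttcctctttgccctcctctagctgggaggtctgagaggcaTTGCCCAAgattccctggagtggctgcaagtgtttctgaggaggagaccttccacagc
Cidec (chr6:113434765-113435014, minus strand): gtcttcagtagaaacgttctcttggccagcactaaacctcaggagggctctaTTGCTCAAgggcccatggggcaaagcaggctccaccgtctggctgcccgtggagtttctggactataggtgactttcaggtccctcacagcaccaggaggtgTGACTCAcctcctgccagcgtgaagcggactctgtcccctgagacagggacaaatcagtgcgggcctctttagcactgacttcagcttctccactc
In Plin1 the matches lie at positions −187 to −180 and −58 to −51 from the start, and in Cidec the C/EBP match lies at −198 to −191 and the AP-1 match at −96 to −90. RefSeq promoters of 300 bases were matched for 22 of the genes, 27 promoters in all, and both strands were searched. TTGCNNAA was found in 4 of the 27 (14.8%; Cidec, Lep, Plin1 and Zfp423), against 10.8% of 32851 promoters of the same length. TGANTCA was found in 1 of the 27 (3.7%, Cidec), against 7.81%, and the strict site TTGCGCAA, which TTGCNNAA contains, in 1 (Lep), against 0.183%. A match describes the letters only.

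All 5 genes of fatty acid uptake and binding had their largest difference in experiment 3. Cd36, the fatty acid translocase, measured 7.75, 10.20 and 10.35 with MEKi, against 7.54, 10.63 and 9.32 with diluent. Its 3 differences, 0.21, −0.43 and 1.03, did not share a sign (0.27 ± 0.23, adjusted p = 0.757), and without experiment 3 its log2 fold change was −0.11. Fabp4, the fatty acid binding protein of adipocytes, measured 10.62, 11.84 and 12.04 with MEKi, against 10.09, 11.86 and 11.47 with diluent. It was higher by similar amounts in experiments 1 and 3 and equal in experiment 2 (0.36 ± 0.12, fold 1.28, interval 1.05 to 1.57, adjusted p = 0.408). Fabp5, its relative in skin and macrophages, measured 8.66, 9.60 and 9.93 with MEKi, against 8.43, 9.79 and 8.95 with diluent, a wide gap only in experiment 3 (0.34 ± 0.20, adjusted p = 0.625). Angptl4, a secreted inhibitor of lipoprotein lipase, was higher in all 3 experiments (0.33 ± 0.09, adjusted p = 0.316), and Lpl, the lipase itself, was at 0.06 ± 0.08.

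Of the 3 enzymes of fatty acid synthesis, Fasn and Acaca were higher in all 3 experiments as deposited. The brightest probe set of Acaca was not so under either other scaling. Fasn, the fatty acid synthase, measured 10.50, 10.98 and 10.73 with MEKi, against 10.22, 10.75 and 10.04 with diluent. It was higher in every experiment, although the lowest MEKi value lay below the highest diluent value (0.40 ± 0.11, fold 1.32, interval 1.11 to 1.57, adjusted p = 0.298). Acaca, which supplies malonyl-CoA to it, measured 9.38, 10.04 and 9.89 with MEKi, against 9.20, 9.98 and 9.48 with diluent (0.22 ± 0.09, adjusted p = 0.495). A further, dimmer probe set of Acaca gave 0.34, with differences of 0.248, 0.254 and 0.533 in experiments 1, 2 and 3. Scd1, which desaturates the products, had a negative log2 fold change of −0.10 ± 0.10, with differences of −0.24, −0.25 and 0.17.

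Of the genes of triglyceride assembly, Gpd1, which makes glycerol-3-phosphate for the backbone, had the widest spread of the 33. It measured 6.94, 11.32 and 11.04 with MEKi, against 7.49, 11.53 and 9.99 with diluent. Experiment 1 was far below the others under both conditions, and MEKi values were lower than diluent values in experiments 1 and 2 and higher in experiment 3, so that the mean difference was near 0 (0.10 ± 0.27, adjusted p = 0.937) and turned to −0.38 without experiment 3. Agpat2, an acyltransferase of the pathway, measured 11.10, 11.90 and 11.96 with MEKi, against 10.82, 11.82 and 11.34 with diluent (0.32 ± 0.11, adjusted p = 0.399). Pck1, which feeds glyceroneogenesis, measured 5.43, 6.05 and 6.0 with MEKi, against 5.35, 5.69 and 5.51 with diluent. It was the gene of the 14 whose difference in experiment 2, 0.35, was the widest, but it was dim (0.31 ± 0.10, adjusted p = 0.367). Dgat1 and Dgat2, which add the last fatty acid, were at 0.27 ± 0.10 and 0.20 ± 0.15.

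Aqp7 and Lipe had the highest log2 fold changes of the 33 genes. Aqp7, the channel through which glycerol leaves fat cells, measured 8.77, 10.29 and 10.64 with MEKi, against 7.96, 10.15 and 9.49 with diluent. It was higher in all 3 experiments, by 0.81, 0.14 and 1.15, yet the groups overlapped because experiment 1 was low under both conditions (0.70 ± 0.17, fold 1.62, interval 1.23 to 2.15, adjusted p = 0.262). Lipe, the hormone-sensitive lipase, measured 10.53, 11.48 and 11.71 with MEKi, against 9.82, 11.44 and 10.85 with diluent (0.54 ± 0.15, fold 1.45, adjusted p = 0.329). Pnpla2, the adipose triglyceride lipase that acts before it, measured 11.28, 11.70 and 12.16 with MEKi, against 10.77, 11.63 and 11.44 with diluent (0.43 ± 0.12, fold 1.35, adjusted p = 0.333). Both lipases were higher in experiments 1 and 3 and nearly equal in experiment 2, by 0.04 and 0.07. Slc2a4, the insulin-responsive glucose transporter GLUT4, measured 7.28, 8.36 and 8.43 with MEKi, against 6.79, 8.35 and 7.65 with diluent, and had the same form (0.43 ± 0.14, adjusted p = 0.382).

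Among the adipokines, Adipoq, which encodes adiponectin, measured 12.05, 12.56 and 12.54 with MEKi, against 11.30, 12.50 and 11.98 with diluent. The difference was 0.75 in experiment 1, 0.06 in experiment 2 and 0.56 in experiment 3, and the groups overlapped (0.45 ± 0.13, fold 1.37, interval 1.11 to 1.70, adjusted p = 0.336). Adipor2, one of its receptors, measured 11.30, 11.70 and 11.87 with MEKi, against 11.13, 11.71 and 11.61 with diluent (0.14 ± 0.08, adjusted p = 0.647). Retn, which encodes resistin, differed little with MEKi (−0.06 ± 0.16), and Lep, which encodes leptin, was dim on all arrays, at 4.85 to 5.06 with MEKi and 4.87 to 5.21 with diluent.

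**Figure D2:**
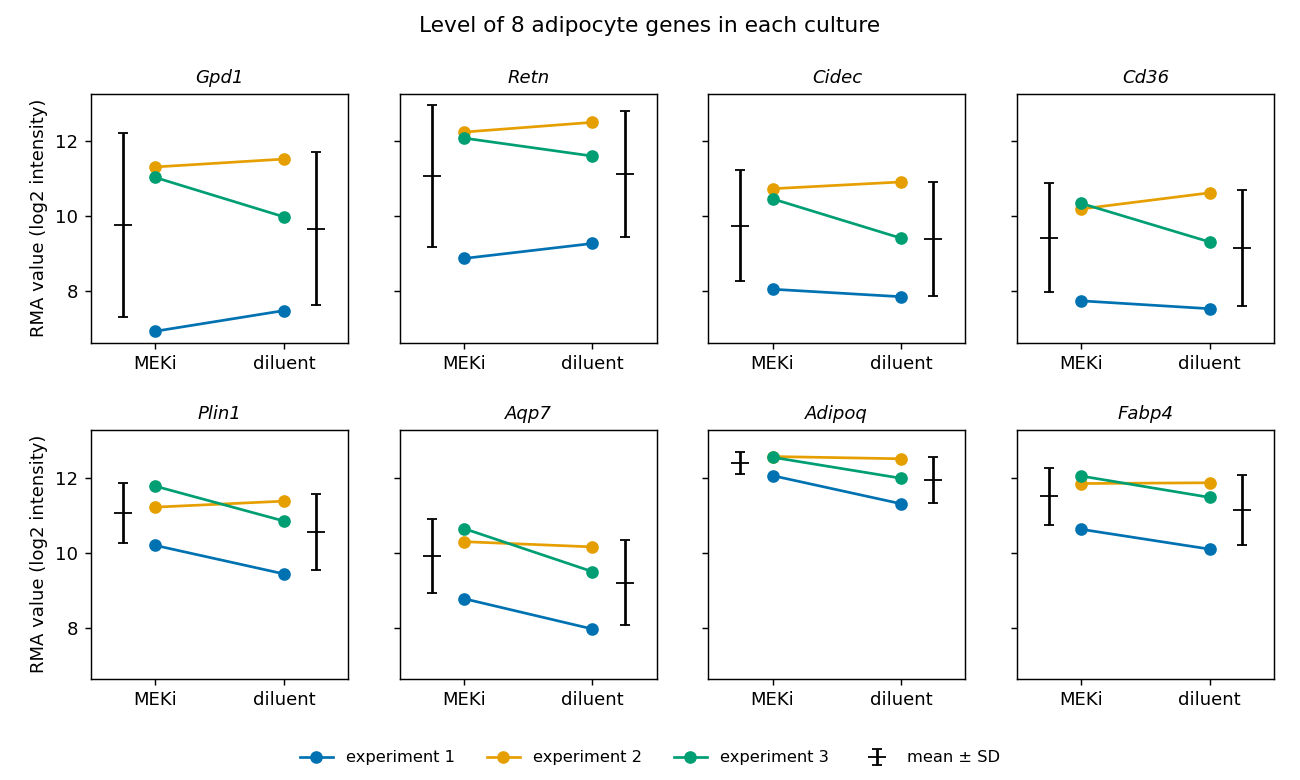
Log2 intensity of 8 of the genes in each experiment, with MEKi on the left and diluent on the right and a line joining the 2 cultures of an experiment; black bars give the mean and SD of the 3 cultures. Experiment 1 lies lowest in all 8 panels under both conditions, and the MEKi value of experiment 3 lies above its diluent value in each, as for Aqp7 (10.64 against 9.49).

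For 25 of the 33 genes, the range of the 3 diluent cultures was wider than each of the 3 MEKi minus diluent differences. A range over 3 cultures and a difference within a pair are unlike measures. The share of named genes for which this held was not counted, so the count has nothing to be set against. The median range of the diluent cultures was 0.85 for the 33 genes and 0.22 for all named genes, most of which were dimmer than the 33. An F test of the experiment in the same limma fit, added after the values were seen, called 19 of the 33 genes (57.6%) at an adjusted p under 0.05, against 6.81% of named genes. Gpd1 was higher by 4.21 in experiment 2 than in experiment 1 and by 3.30 in experiment 3 than in experiment 1 (adjusted p = 0.00112), and Retn by 3.30 and 2.77 (adjusted p = 0.000247). Cidec followed with 2.87 and 1.98 (adjusted p = 0.00233) and Cd36 with 2.77 and 2.19 (adjusted p = 0.00438). These are genes of mature fat cells, and all 4 were lowest in experiment 1. The count depended on experiment 1: without it 0 of the 33 genes and 0.777% of named genes were called. Without experiment 2, 18 of the 33 genes were called (54.5%), against 7.44% of named genes, and without experiment 3, 24 (72.7%), against 6.96%.

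Experiment 1 gave the lowest value in 27 of the 33 genes (81.8%) among the MEKi cultures, against 53.0% of named genes, and in 25 (75.8%) among the diluent cultures, against 39.5% of named genes. Among the diluent cultures, experiment 2 gave the highest value in 26 of the 33 genes (78.8%), against 34.4% of named genes. Among the MEKi cultures, experiment 3 was highest in 19 genes (57.6%), against 23.2% of named genes, and experiment 2 in 11 (33.3%), against 57.2%. The diluent culture of experiment 2 was therefore the one with the highest values of these genes and also the one whose MEKi partner differed least from it; the relation of the starting level to the difference shares the diluent value and was not tested.

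**Figure D3:**
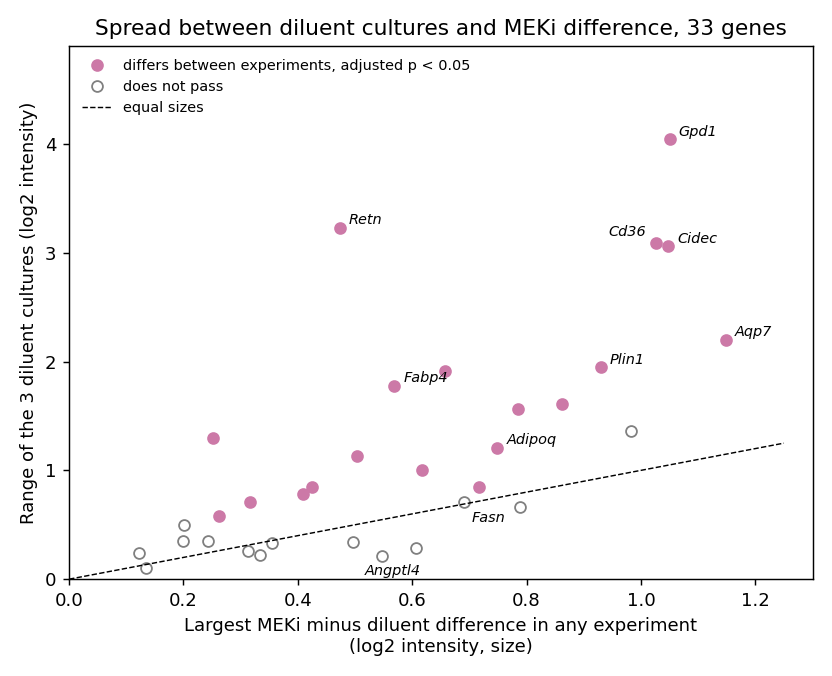
Range of the 3 diluent cultures (log2 intensity, vertical axis) against the size of the largest MEKi minus diluent difference (log2 intensity, horizontal axis) for the 33 genes, with filled points for the 19 genes that differed between experiments and a dashed line of equal sizes. For 25 genes the point lies above the line, with Gpd1 at 4.04 on the vertical axis and 1.05 on the horizontal axis. The share of named genes above the line was not counted.

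Markers of other cell types were measured beside these genes. The median level of 10 macrophage genes was 5.43 to 5.57 with MEKi and 5.45 to 5.54 with diluent, that of 6 measured of 9 osteoblast genes 4.74 to 4.86 with MEKi and 4.68 to 4.81 with diluent, and those of 6 endothelial and 6 chondrocyte genes also lay below 6.32 on every array. The defining markers Adgre1, Ptprc, Ibsp, Sp7 and Cdh5 were dim throughout, but not every gene of these lists was dim. Of single genes, Alpl, an alkaline phosphatase of osteoblasts that stromal cells also make, differed by 1.29, −0.59 and 1.22 in experiments 1, 2 and 3, and Cd68, a lysosomal protein rich in macrophages, by −0.93, −0.15 and −0.74. Of the other macrophage genes, Lyz2, a lysozyme, differed the other way, by 0.38, 0.27 and 0.62, and so did Cd14, a receptor for bacterial lipopolysaccharide, by 0.13, 0.31 and 0.32. These 4 genes lay above 6.32 on every array. Cd68 measured 8.96 to 11.41, Lyz2 7.37 to 8.85, Cd14 6.62 to 7.01 and Alpl 6.4 to 9.16. In the F test of the experiment, Cd68 (adjusted p = 0.00276) and Lyz2 (0.00608) were called. Alpl (0.117) and Cd14 (0.613) were not. By log2 fold change 5 of the 10 macrophage genes were higher and 5 lower, and 0 passed the test (limma), with 2 higher and 1 lower at an unadjusted p under 0.05. Their part in the differences of the fat genes was not tested.

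Another 102 analysed of 110 listed genes of adipocytes and lipid metabolism, also chosen with earlier results known, were counted in the same fit. Of these, 1 was called higher, Car3, a carbonic anhydrase abundant in fat, and 0 were called lower, with 17 higher (16.7%, against 7.85% of named genes) and 10 lower (9.8%, against 2.31%) at an unadjusted p under 0.05. Car3 measured 12.40, 12.03 and 12.10 with MEKi, against 11.65, 10.95 and 10.94 with diluent, without overlap of the groups and with its smallest difference, 0.74, in experiment 1 (1.00 ± 0.10, adjusted p = 0.0319). Among 18 further genes of mature adipocytes, the next in size was Adig, adipogenin, at 0.81 ± 0.17, and the median was 0.09. Among 21 further genes of droplets and triglyceride, Gpam, the enzyme of the first acylation, was at 0.55 ± 0.09, and Hilpda, an inhibitor of Pnpla2 that hypoxia induces, at −0.78 ± 0.24, with differences of −1.45, 0.05 and −0.95. The median was 0.13 for this list.

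The synthesis list of 14 had a median of 0.01, with Elovl6, an elongase, at −0.21 and Srebf1, the regulator of lipogenesis, at 0.17. The uptake and oxidation list, with 14 of 18 genes analysed, had a median of 0.08, with the peroxisomal enzyme Ehhadh at 0.41 and the mitochondrial dehydrogenase Acadm at 0.32. The 27 regulators of adipogenesis had a median of −0.04, and the largest sizes belonged to Trib2, a pseudokinase that restrains C/EBPα, at −0.52 and Klf5, a factor of early differentiation, at −0.47. The 8 thermogenic genes had a median of 0.02, with the respiratory chain subunits Cox7a1 at −0.58 and Cox8b at 0.27. None of these named genes other than Car3 passed the test (limma, adjusted p of 0.11 to 0.749), and the differences stood beside a median of 0.04 over all named genes.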

How the data were processed

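Per the labels and the study's methods, RNA of MS5 cells was hybridised to 6 arrays, and the authors normalized the intensities by RMA and deposited log2 values of 28853 probe sets; statistics were done in Partek, and versions and genome build are not given in the sources used here. RMA corrects background and equalizes the distributions of the arrays, which compresses small differences of dim probe sets. Nothing was filtered or normalized again, and 0 columns were left out. The number of arrays limits the precision.

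The probe annotation names 1 gene for 21789 probe sets, several for 1621 and none for 5443, and 21698 gene numbers of the first were found in the GRCm38.p6 table. For 999 genes with more than 1 probe set, the brightest on average stood for the gene.

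MEKi and diluent cultures were compared by limma 3.58.1 in R 4.3.3 (lmFit, eBayes; 2 residual and 5.17 prior degrees of freedom), with a fixed block for the experiment. The Benjamini-Hochberg adjustment covered every probe set, with a threshold of 0.05. Cultures with the same experiment number were pairs: deviations from the group means correlated at 0.81, 0.59 and 0.62 between the 2 arrays of an experiment and at −0.61 to 0.21 otherwise. The labels call the cultures separate series of a single line. With the block, the p-values for MEKi set the mean difference against the variance of the 3 within-experiment differences. That variance was moderated towards a value shared by all probe sets, and the spread of levels between experiments is left out of it. An analysis of variance with the experiment as a block was an alternative. It used the study's 1.5-fold and an unadjusted p of at most 0.05 or 0.0005, since the study's threshold can be read either way. The Tukey tests that the paper describes were not run. The procedure was run on simulated arrays with planted changes and independent noise. That does not show how it behaves for genes that vary together between experiments. Figures were drawn with Python 3.11.15 and matplotlib 3.10.9.

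The genes, their roles and the other lists were chosen with earlier results of these data known. Values on each array are given for the 2 genes of each role with the largest change, those of the same direction in all experiments with at least 1.5-fold in 2 of them, and the 5 with the widest range of differences; Zfp423, Pparg and the F test were added after values were seen. Of other lists, genes past the threshold and the 2 largest are named. Alternatives were the block, scaling, brightness, weights, prior, probe sets and leaving out each experiment.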

Additional observations from a re-analysis of the deposited data

How the results depend on the processing

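The count of 0 genes called at an adjusted p under 0.05 held in every alternative run. An analysis of variance with the experiment as a block called 0 at an adjusted p under 0.05. It also called 0 at the study's unadjusted p and 1.5-fold. Only Aqp7 of the 33 genes, at fold 1.62, reached 1.5-fold over the experiments, so that cut left little to call. The lowest adjusted p of a gene described in full was 0.131, for Aqp7 without experiment 2, and 17 of the 19 such genes kept their direction in every setting run on them, which was 11 settings for 17 of the 19 and 10 for Dlk1 and Pck1, too dim for the restriction to brighter probe sets. Without a replicate block, 2 genes were higher and 0 lower at an unadjusted p under 0.05, against 2.47% and 0.808% of named genes. A random block in its place gave 5 higher and 0 lower, and the share of named genes was not counted for it. Leaving out each experiment gave 4 to 19 higher and 0 to 2 lower at that level, against 4.47% to 6.26% and 1.34% to 5.08% of named genes. It gave 0 to 24 that differed between experiments, against 0.777% to 7.44% of named genes, and a median log2 fold change of 0.08 to 0.31. The log2 fold change ranged from −0.38 to 0.42 for Gpd1 and from −0.11 to 0.62 for Cd36 over these fits, negative without experiment 3. After a further quantile normalization 8 genes were higher and 4 lower in all 3 experiments, and with arrays centred on their medians 6 were higher. These scalings moved the median difference of all probe sets by up to 0.099 within an experiment. At a fold of 1.3, 7 genes were higher and 2 lower in experiment 1 (1.74% and 3.1% of named genes), 0 and 1 in experiment 2 (4.55% and 0.893%), and 21 and 1 in experiment 3 (3.74% and 2.24%). At a fold of 2, 0 were higher in experiment 1 (0.0301%) and 4 in experiment 3 (0.181%). With 1 array per condition and experiment, the response in experiment 2 cannot be told apart from the variation of a single pair. The cause of these changes was not tested.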
